A study of Mus musculus with 12 samples.

Results

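The genes of glycolysis, glycogen turnover and lactate handling were followed in the tibialis anterior, a fast hindlimb muscle, of 6 WT and 6 mdx/mTR mice. The set is a list of 41 gene symbols, from the hexokinases to the lactate carriers and the glycerol phosphate shuttle, and all 41 were found among the 24421 rows of the deposited count table. WT mice carried the C57Bl/6 strain label and mdx/mTR mice the strain label mdx/mTR, and all 12 were male and 4 months old. By the mdx mutation the Dmd gene, which encodes the membrane protein dystrophin, is disrupted, and mTR stands for the telomerase RNA gene, so by its label every mdx/mTR mouse carries both lesions, whose effects cannot be told apart here. The allele, background and breeding generation of the mdx/mTR mice are not given in the sources used here, and WT is a separate strain label rather than a stated littermate group.

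In glycolysis, glucose is phosphorylated by hexokinase, committed by phosphofructokinase, split by aldolase and carried through the triose steps to pyruvate, which lactate dehydrogenase turns into lactate. Skeletal muscle feeds the same route from glycogen through muscle phosphorylase, which phosphorylase kinase switches on during contraction, and it uses its own forms of most of these enzymes (Hk2, Pfkm, Aldoa, Pgam2, Eno3, Ldha and Pygm), while other tissues use related forms from other genes. Lactate leaves fast fibres through the carrier encoded by Slc16a3, and the glycerol phosphate shuttle passes electrons from glycolysis to the mitochondria.

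Library totals ran from 35136327 to 60330410 counts, and the scaling factors of the trimmed mean of M-values (TMM) were 0.929 to 0.971 for WT and 0.988 to 1.16 for mdx/mTR. Dmd, which checks the labels, had 228 to 244 CPM (counts scaled by effective library size) in the WT mice and 35.2 to 56.4 CPM in the mdx/mTR mice, without overlap. Terc, the telomerase RNA gene, was at 0 in all mdx/mTR libraries and at 0 to 0.0555 CPM in WT, so its loss could not be examined. Among marker lists, the 8 macrophage markers were all higher in mdx/mTR (summed level 44.3 to 75.1 CPM for WT, 113 to 365 CPM for mdx/mTR), as were the 6 fibroblast markers (1074 to 2079 CPM, then 2755 to 5692 CPM). Of the markers of satellite cells and regenerating fibres, 6 of 7 tested were higher and 0 lower. Among the 6, Tmem8c had 0 to 6 counts a library in WT and Chrng 1 to 6. Both entered the test through the group in which they were high. For mature fast fibres, 1 of 9 was higher and 1 lower, and their summed level was 164263 to 185524 CPM for WT and 124544 to 170999.9 CPM for mdx/mTR. Markers of slow and oxidative fibres were higher for 5 of 8 and lower for 2. Their summed level was 752 to 2399.6 CPM for WT and 524 to 689 CPM for mdx/mTR. Most of that sum was Myh2, the myosin of fast oxidative fibres (633 to 2161 CPM in WT, 203 to 517 CPM in mdx/mTR), so the sum is not a measure of slow fibres. Neutrophil markers were higher for 2 of 3 tested, endothelial markers lower for 4 of 6 and Schwann cell markers lower for 4 of 5. None of 4 tested adipocyte markers and none of 2 tested red blood cell markers passed the test, and 4 globin rows were at 0 in every library.

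Several rows of the set share sequence with copies elsewhere in the genome and may not be full gene levels. In the transcripts of GENCODE M21 (build GRCm38, called mm10 in the submitters' processing notes), 100% of the 50-base stretches inside the coding part of Gapdh, Pgk1 and Pgam1 occur in another gene entry, and 83.4% for Eno1. The opening coding bases are shown for these rows because a read lying wholly within them has no unique origin. A longer or paired read may reach bases that are not shared. Capitals mark the start codon.
Gapdh: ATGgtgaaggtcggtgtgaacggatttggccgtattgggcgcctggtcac
Pgk1: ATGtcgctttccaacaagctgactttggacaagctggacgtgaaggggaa
Pgam1: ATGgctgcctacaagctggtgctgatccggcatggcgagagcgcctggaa
The Gapdh bases are found unchanged in 35 other gene entries, those of Pgk1 in 1 (Gm5537) and those of Pgam1 in 1 (Pgam1-ps2). Outside the coding part the shared percentage was 42.6% for Gapdh, 0.350% for Pgk1 and 0% for Pgam1. Gapdh lies on chromosome 6 (125161852 to 125166467), Pgk1 on chromosome X (106187100 to 106203699) and Pgam1 on chromosome 19 (41911871 to 41918665), by RefSeq on GRCm38.p6. How reads with several matches were handled is not given in the sources used here. Among the remaining rows, Pkm (34.4%), Ldhb (27.0%), Gpi1 (25.3%), Pfkfb2 (25.1%) and Phkg1 (25.0%) had the next largest shares of the whole transcript, while Pfkm, Pgam2, Eno3, Fbp2, Phka1 and Gyg had 0%.

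**Figure D1:**
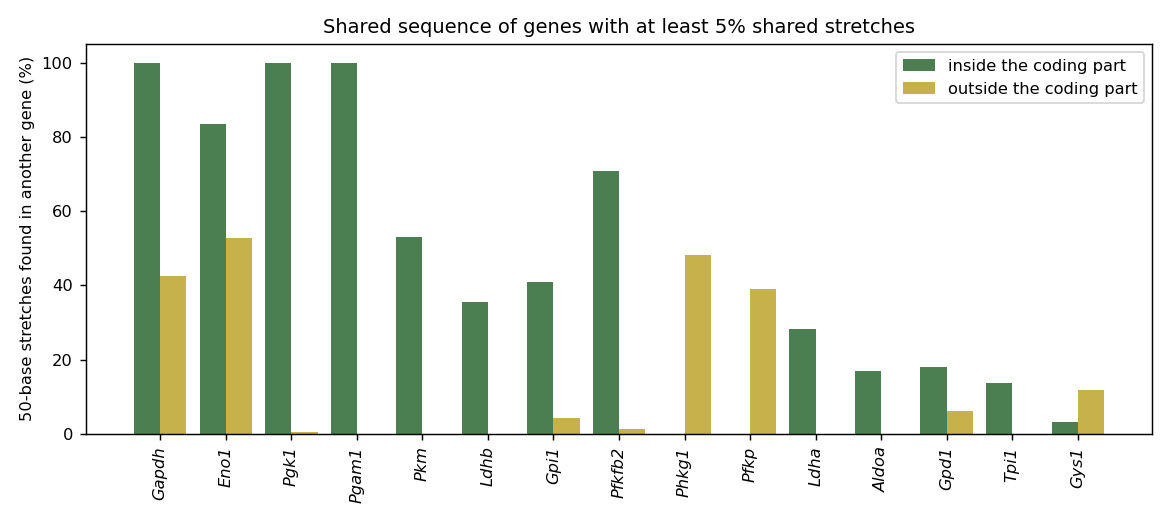
Share (%) of 50-base stretches, taken from each gene's longest coding transcript, with an identical copy in another GENCODE M21 entry, drawn as bars for the coding part and for the rest, for the genes with at least 5% shared over the whole transcript. Gapdh, Pgk1 and Pgam1 reach 100% inside the coding part, whereas Phkg1 and Pfkp share sequence only outside it.

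Of the 41 genes, 40 passed the filter on low counts and were tested, and Eno1 was not. In the fit across 13937 genes, 25 of the 40 had an adjusted p below 0.05 (edgeR quasi-likelihood test, Benjamini-Hochberg adjustment over all genes tested), which is 62.5%, against 48.3% of all tested genes. Of the 25, 8 were higher in mdx/mTR (20%, against 25.0% of all genes) and 17 were lower (42.5%, against 23.4% of all genes). The groups of 6 did not overlap for 8 of the 40 (20%, against 25.2% of all genes), 4 higher and 4 lower. The median log2 fold change of the 40 was -0.18, and that of all tested genes was 0.01. Most changes were small: 1 called rise reached 2-fold (Aldoc, at very low counts; 7.24% of all genes rose that far) and 2 called falls did (Pgk1 and Fbp2; 1.94% of all genes). The number of calls in each direction changed with the scaling factors. When only library totals were used, calls over all genes became 5596 higher and 1560 lower (from 3479 and 3257). Those in the set became 13 higher and 9 lower. Both medians moved up, to 0.17 for all genes and -0.03 for the set, so the set's median stayed below that of all genes. In the set, relative log expression factors gave 7 higher and 17 lower, and upper quartile factors 8 higher and 12 lower. Across up to 22 alternatives (other filters, scalings, tools, a replicate block and mice left out, but not the stricter threshold or the minimum effect), 15 of the 25 stayed called. These were 9 lower (Pgk1, Ldhb, Pygm, Gyg, Phka1, Pfkfb4, Fbp2, Ppp1r3a and Gpd2), 5 higher (Hk1, Pfkl, Pfkp, Pygb and Pgm1) and Aldoc. Aldoc reached the filter level in 6 mdx/mTR libraries but only 3 WT libraries, so its entry into the test favoured a difference. None of the 25 changed sign in them. With a minimum log2 fold change of 0.5, 3 stayed called.

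The 41 genes summed to 5.50% to 6.10% of a WT library's counts (median 5.81%) and 5.20% to 5.86% of an mdx/mTR library's (median 5.77%). Per kilobase of the longest coding transcript, Aldoa had the highest level in WT (median 10564 CPM per kb), followed by Eno3 (4456), Pygm (3640), Pgam2 (2174) and Pfkm (2084). The same 5 genes led in mdx/mTR in the same order, with medians of 10123, 4201, 2557, 2129 and 1985 CPM per kb. The ranges of Pgam2 and Pfkm overlapped in both groups; within a library, Pgam2 was above Pfkm in 6 of 6 WT and 4 of 6 mdx/mTR mice. The row Gapdh (187 CPM per kb in WT) may not be a full gene level, given its copies.

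**Figure D2:**
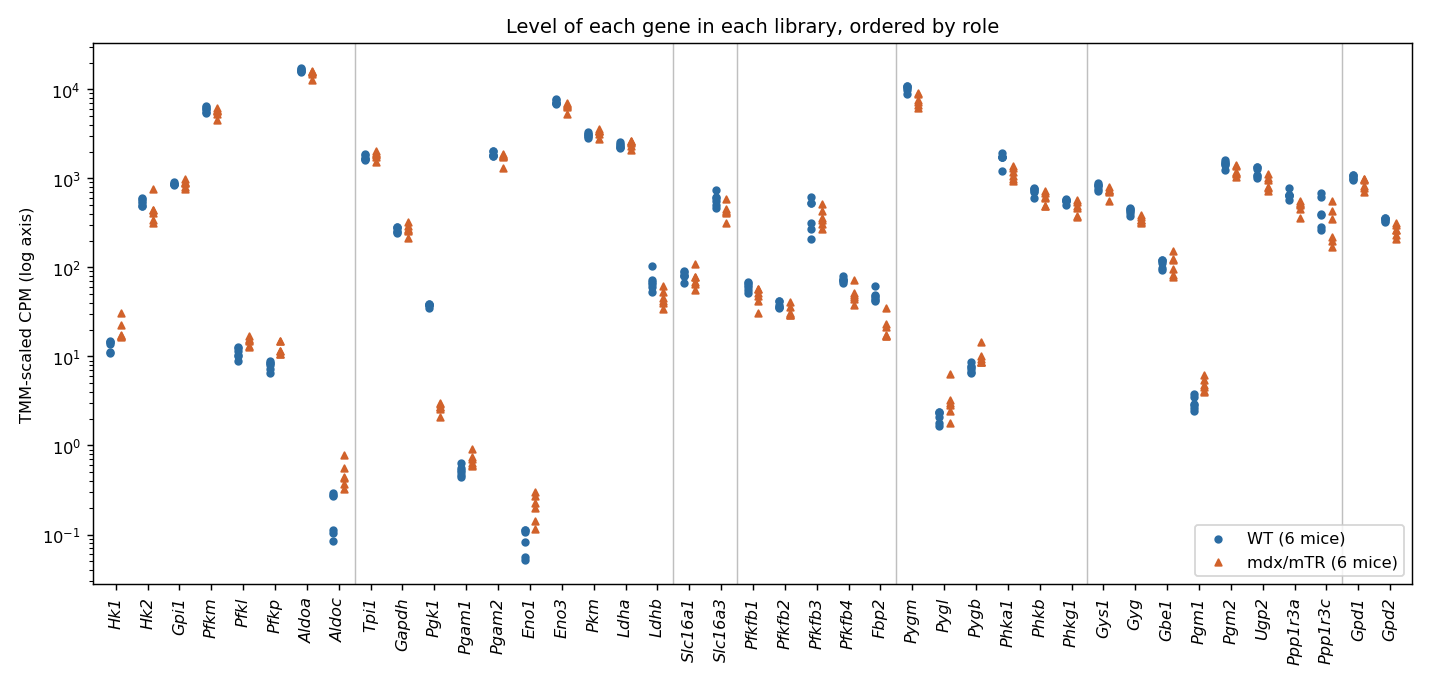
TMM-scaled CPM of each of the 41 genes in each of the 12 libraries on a log axis, with grey lines between the roles. Circles are WT and triangles mdx/mTR; Aldoa is highest and Eno1 lowest in both groups, and Pgk1 has the widest gap between the groups.

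In the early steps, from hexokinase to aldolase, no gene of 8 fell and 4 rose (all genes: 23.4% and 25.0%), each of them a form that muscle expresses at a low level. Aldoc, which is among the 4, entered the test through the group in which it was high. Hk1, the hexokinase of most tissues, had 10.997 to 15.02 CPM in WT (median 14.1) and 16.6 to 30.8 CPM in mdx/mTR (median 17.3), without overlap. Its log2 fold change was 0.60 ± 0.15 (SE; edgeR adjusted p 0.0052). Hk2, the muscle form that responds to insulin, had 495 to 595 CPM in WT (median 543) and 318 to 756 CPM in mdx/mTR (median 422), with overlap. Its log2 fold change of -0.27 ± 0.17 did not pass (adjusted p 0.204). Without mdx/mTR replicate 2, the library at 756 CPM, Hk2 was called lower (-0.48, adjusted p 0.0011).

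Of the phosphofructokinase subunits, both minor ones rose and the muscle subunit did not pass. Pfkp, the platelet type subunit, had 6.50 to 8.82 CPM in WT (median 8.20) and 10.5 to 15.1 CPM in mdx/mTR (median 11.4), and every mdx/mTR library lay above every WT library. Its log2 fold change was 0.64 ± 0.11 (edgeR adjusted p 4.2e-04). Outside the coding part, 39.1% of the stretches of Pfkp are shared with the entry Pitrm1. Pfkl, the liver type subunit, rose from a median of 10.97 CPM (8.99 to 12.9) to 15.2 CPM (12.7 to 17.1), with a slight overlap and a log2 fold change of 0.42 ± 0.10 (adjusted p 0.0028). Pfkm, the muscle subunit, had 5455 to 6499 CPM in WT (median 6001) and 4539 to 6172 CPM in mdx/mTR (median 5716), and its log2 fold change of -0.11 ± 0.08 did not pass (adjusted p 0.282). The sign for Pfkm was positive with library totals alone (0.04).

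Aldoc, the brain type aldolase, was near the limit of detection in WT, at 3 to 11 counts a library, and had 12 to 48 counts in mdx/mTR. In CPM these are 0.0837 to 0.292 (median 0.192) and 0.328 to 0.786 (median 0.442), without overlap, with a log2 fold change of 1.35 ± 0.34 (edgeR adjusted p 0.0048). It reached the filter level in 3 WT libraries and in 6 mdx/mTR libraries, so it entered the test through the group in which it was high. Aldoa, the muscle aldolase, had 15624 to 17345 CPM in WT (median 16364) and 12635 to 16104 CPM in mdx/mTR (median 15681), with overlap. The log2 fold change of Aldoa was -0.12 ± 0.08 (adjusted p 0.242) and was 0.03 with library totals alone. Gpi1, the isomerase between the 2 kinase steps, was at 0.01 ± 0.06 (adjusted p 0.907) and changed sign without WT replicate 2 or mdx/mTR replicates 1 or 6, and it was called higher with library totals alone (0.16, adjusted p 0.0067).

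In the triose steps, the abundant muscle enzymes did not pass the test, and 3 of 9 tested genes did (all genes: 48.3%). Tpi1 (0.09 ± 0.07), Pgam2 (-0.12 ± 0.08), Eno3 (-0.16 ± 0.08), Pkm (0.11 ± 0.07) and Ldha (0.06 ± 0.07) had adjusted p from 0.110 for Eno3 to 0.535 for Ldha in edgeR. Ldha, the subunit that favours lactate formation, had 2202 to 2535 CPM in WT (median 2331) and 2086 to 2628 CPM in mdx/mTR (median 2524). Eno3, the muscle enolase, had 6887 to 7775 CPM in WT (median 6970) and 5269 to 7076 CPM in mdx/mTR (median 6570). Pgam2, the muscle mutase, had 1766 to 2020 CPM in WT (median 1827) and 1303 to 1885 CPM in mdx/mTR (median 1788). For each of these genes the groups overlapped. With library totals alone Tpi1 (0.24), Pkm (0.26) and Ldha (0.21) were called higher, and Pgam2 was at 0.03.

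Ldhb, the subunit of heart and oxidative muscle, fell. It had 53.4 to 104 CPM in WT (median 66.6) and 34.1 to 61.1 CPM in mdx/mTR (median 43.8), with overlap, and a log2 fold change of -0.63 ± 0.16 (edgeR adjusted p 0.0056). Slow and oxidative fibre markers moved both ways beside it: Myh2 (-1.38), which made up most of their sum, and Myl3 (-1.85) fell, while Myh7, Tnnt1, Tnni1, Tnnc1 and Atp2a2 rose (1.17 to 4.01), and their part in the result was not tested. Ldhb was the only tested minor form that was lower, and 27.0% of its stretches are shared with Gm5514.

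Pgk1, the X-linked gene of phosphoglycerate kinase, showed the largest difference of the set. It had 35.5 to 39.1 CPM in WT (median 38.0) and 2.09 to 3.01 CPM in mdx/mTR (median 2.71). The 6 mdx/mTR libraries held 98 to 184 counts each against 1296 to 1496 in WT, so that the level was 7.10% of WT, with a log2 fold change of -3.82 ± 0.08 (edgeR adjusted p 5.9e-13). As its whole coding part is shared with pseudogenes, the row may count only a part of the reads of the mRNA, and a difference in the row may not be that of the total Pgk1 mRNA. Outside the coding part only 0.350% of its stretches are shared, and reads there were not counted apart. Gapdh, with 242 to 284 CPM in WT (median 266) and 216 to 320 CPM in mdx/mTR (median 267), was at 0.03 ± 0.08 (edgeR adjusted p 0.756). Its coding part is also wholly shared, as are 42.6% of its stretches outside that part. With library totals alone Gapdh was called higher (0.19, adjusted p 0.0493), and without mdx/mTR replicate 2 its value was -0.02. Pgam1 had 16 to 23 counts a library in WT and 22 to 49 in mdx/mTR (0.445 to 0.629 CPM, median 0.515, and 0.593 to 0.916 CPM, median 0.669). Its log2 fold change of 0.42 ± 0.17 lay at the threshold (adjusted p 0.04999) and missed it under 16 of 21 alternatives. Eno1 was counted 2 to 4 times in WT and 7 to 14 times in mdx/mTR, and 70.5% of its stretches occur in Eno1b, so no fold is given.

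**Figure D3:**
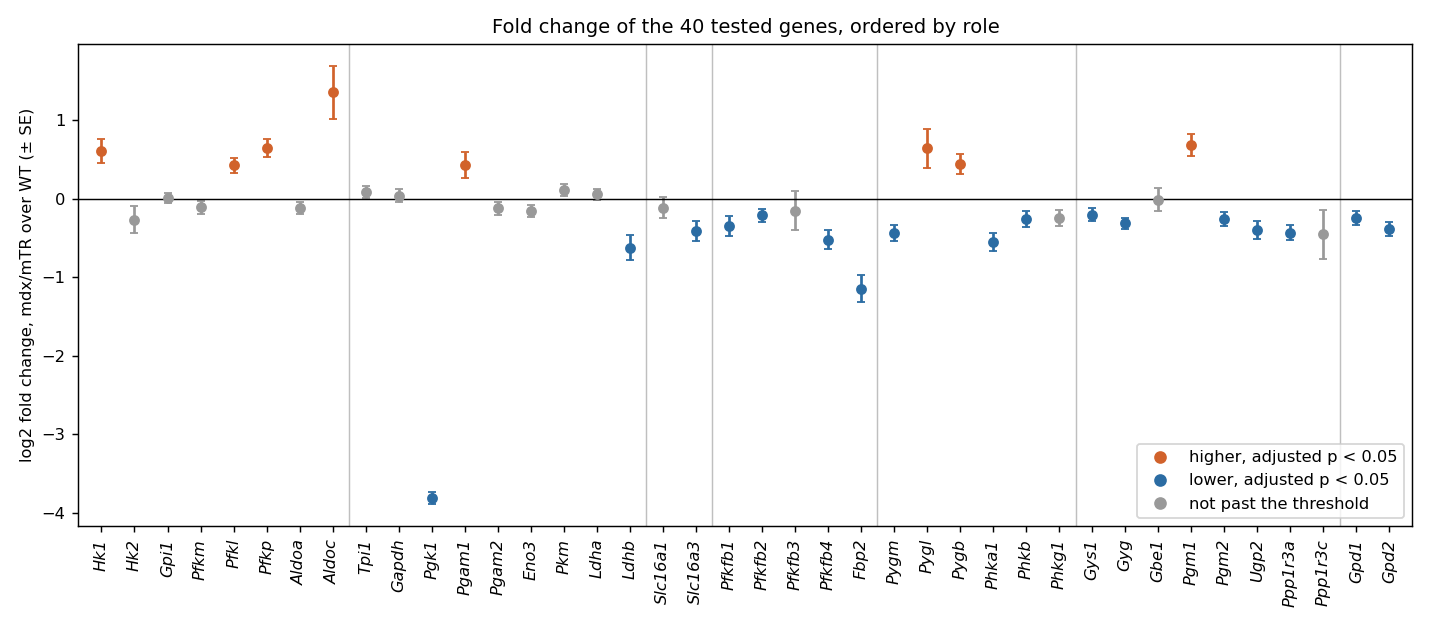
Fold change on the log2 axis (mdx/mTR relative to WT, bars ± SE) for the 40 tested genes, ordered by role, with colour for the edgeR call. Among regulator, glycogen and shuttle genes the called falls lie between -0.21 and -1.15, beside the called rises of Pygl, Pygb and Pgm1 and 4 genes not called, and Pgk1 stands alone at -3.82.

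The forms were next compared within each library, where the ratio of 2 rows does not depend on the scaling. Of 9 minor forms, 8 were tested, 7 were higher (Hk1, Pfkl, Pfkp, Aldoc, Pygl, Pygb and Pgam1) and 1 lower (Ldhb). Without Aldoc, whose entry into the test favoured a difference, 6 of 7 were higher and 1 lower, against 25.0% and 23.4% of all genes. Library totals alone gave the same counts, but there 5596 of all genes were called higher and 1560 lower, so the background differs. Of the 6, Pgam1 lost its call under 16 of 21 alternatives and Pygl under 14 of 22. Of the 7 main muscle forms, 0 were higher, 1 was lower (Pygm) and 6 did not pass; with library totals alone 1 was higher and 1 lower. Hk1 stood at 18.5 to 27.7 counts per 1000 counts of Hk2 in WT and at 30.1 to 96.9 in mdx/mTR. Pfkp stood at 1.001 to 1.62 counts per 1000 of Pfkm in WT and 1.84 to 3.31 in mdx/mTR, and Pfkl at 1.61 to 2.04 and 2.05 to 3.40. For these 3 ratios and for Aldoc over Aldoa the groups did not overlap. Ldhb stood at 21.7 to 47.4 counts per 1000 of Ldha in WT and at 15.6 to 26.7 in mdx/mTR, with overlap. The muscle form still dominated each family: per length, Hk1 made up 3.09% ± 0.434 of the hexokinase pair in WT (SD, n = 6) and 5.92% ± 2.64 with mdx/mTR (SD, n = 6), and Pfkm made up 99.8% and 99.6% of the phosphofructokinase forms on the same scale. Most markers given above for macrophages, neutrophils, fibroblasts, and satellite cells and regenerating fibres moved in the same direction as the minor forms. Among them, Tmem8c, Chrng and S100a8 entered the test wholly or mainly through mdx/mTR, as given above. Most endothelial and Schwann cell markers moved the other way. The part of any of these cell types in the rise was not tested. In bulk tissue, more cells of a type and more RNA per cell cannot be told apart.

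**Figure D4:**
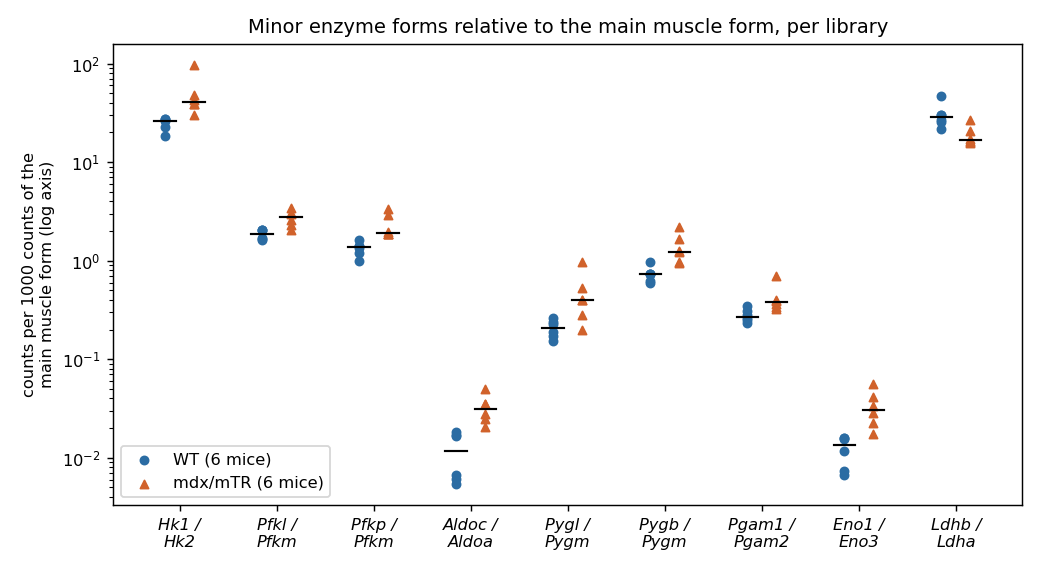
Counts of each minor enzyme form per 1000 counts of the main muscle form of its family in each library, on a log axis, with a bar at the median of each group of 6. Hk1, Pfkl, Pfkp, Aldoc and Eno1 separate the groups upward, and Ldhb over Ldha is lower in mdx/mTR with overlap (medians 28.6 and 16.8). Aldoc had 3 to 11 counts a library in WT. Eno1 had 2 to 4 in WT and 7 to 14 in mdx/mTR and was not tested, and 72.2% of its stretches are shared with other entries.

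Of 5 genes that steer the fructose 6-phosphate step, 4 fell and 0 rose (all genes: 23.4% and 25.0%). Fbp2, the muscle fructose bisphosphatase that works against phosphofructokinase, had 42.5 to 62.6 CPM in WT (median 46.2) and 16.8 to 35.4 CPM in mdx/mTR (median 19.6), without overlap. This is 45.2% of WT, with a log2 fold change of -1.15 ± 0.17 (edgeR adjusted p 1.2e-04). The bifunctional enzymes make and degrade fructose 2,6-bisphosphate, an activator of phosphofructokinase. Pfkfb4 had 67.4 to 80.1 CPM in WT (median 72.3) and 38.0 to 72.4 CPM in mdx/mTR (median 47.9), at -0.53 ± 0.12 (adjusted p 0.0026). Pfkfb1 fell by 0.35 ± 0.13 (adjusted p 0.0389) and Pfkfb2 fell by 0.21 ± 0.08 (adjusted p 0.0490) on the log2 scale. Pfkfb1 missed the threshold under 9 of 22 alternatives and Pfkfb2 under 15 of 22. Pfkfb3 ran from 210 to 613 CPM within WT and did not pass (-0.15 ± 0.25, adjusted p 0.634).

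Of 6 genes of glycogen breakdown, 3 fell (Pygm, Phka1 and Phkb) and 2 rose (all genes: 23.4% and 25.0%). Pygm, muscle phosphorylase, had 8908 to 10940 CPM in WT (median 10461) and 6116 to 9040 CPM in mdx/mTR (median 7349), and the groups overlapped by 1 WT library at the lower edge. Its level was 73.7% of WT, with a log2 fold change of -0.44 ± 0.11 (edgeR adjusted p 0.0036). Phka1, the regulatory alpha subunit of muscle phosphorylase kinase, had 1200 to 1913 CPM in WT (median 1730) and 941 to 1384 CPM in mdx/mTR (median 1116), at -0.55 ± 0.12 (adjusted p 0.0018). Its overlap came from WT replicate 2, the library at 1200 CPM, while the other 5 WT libraries lay at 1726 CPM or above. Phkb, the beta subunit, was called lower at -0.26 ± 0.10 (adjusted p 0.0473) and missed the threshold under 13 of 22 alternatives. Phkg1, the catalytic gamma subunit, was at -0.25 ± 0.10 and did not pass (adjusted p 0.0614), and 25.0% of its stretches are shared with Sumf2.

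The 2 phosphorylases of other tissues went the other way. Pygb, the brain form, had 6.53 to 8.65 CPM in WT (median 7.47) and 8.58 to 14.6 CPM in mdx/mTR (median 9.10), at 0.44 ± 0.13 (edgeR adjusted p 0.0127). Pygl, the liver form, had 1.67 to 2.38 CPM in WT (median 2.21) and 1.80 to 6.39 CPM in mdx/mTR (median 2.95), at 0.64 ± 0.25 (adjusted p 0.0473). Without mdx/mTR replicate 5, the library at 6.39 CPM, the log2 fold change of Pygl was 0.34 (adjusted p 0.0981), and the call was lost in 10 of 12 omissions of 1 mouse. For Pygb the value without that library was 0.30 and stayed called.

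Of 8 genes of glycogen synthesis, 5 fell and 1 rose (all genes: 23.4% and 25.0%). Gyg, glycogenin, the protein primer of glycogen, had 383 to 463 CPM in WT (median 437) and 314 to 386 CPM in mdx/mTR (median 341), at -0.32 ± 0.07 (edgeR adjusted p 0.0014). Ppp1r3a, the muscle subunit that brings protein phosphatase to glycogen, had 571 to 772 CPM in WT (median 649) and 363 to 553 CPM in mdx/mTR (median 509), without overlap, at -0.44 ± 0.10 (adjusted p 0.0022). Ugp2, which makes UDP-glucose, was at -0.40 ± 0.12 (adjusted p 0.0117) and did not pass with library totals alone (-0.24, adjusted p 0.0941). Gys1, muscle glycogen synthase, was at -0.21 ± 0.08 (adjusted p 0.0473), a call lost under 14 of 22 alternatives. Gbe1, the branching enzyme, was at -0.02 ± 0.15 (adjusted p 0.933), with a sign that varied among the alternatives. Ppp1r3c, another targeting subunit, ranged widely, with 266 to 683 CPM in WT (median 395) and 169 to 563 CPM in mdx/mTR (median 283), and did not pass (-0.46 ± 0.31, adjusted p 0.242).

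The 2 phosphoglucomutase rows were called in opposite directions. The row Pgm1 had 2.44 to 3.75 CPM in WT (median 2.89) and 3.94 to 6.24 CPM in mdx/mTR (median 4.65), without overlap, at 0.68 ± 0.14 (edgeR adjusted p 0.0012). The row Pgm2 had 1251 to 1621.6 CPM in WT (median 1465) and 1044 to 1423 CPM in mdx/mTR (median 1156), at -0.26 ± 0.09 (adjusted p 0.0251). The Pgm2 call was lost under 5 of 22 alternatives, among them library totals alone (-0.11, adjusted p 0.164). The RefSeq table lists each of these symbols as a synonym of the other gene, so which enzyme each row counts was not settled, and their level per length rests on an unchecked name.

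Of 2 lactate carriers 1 fell, and both genes of the glycerol phosphate shuttle fell (all genes: 23.4% lower). Slc16a3, which encodes the lactate carrier MCT4 of fast fibres, had 470 to 735 CPM in WT (median 580) and 313 to 584 CPM in mdx/mTR (median 427), at -0.41 ± 0.13 (edgeR adjusted p 0.0192). With library totals alone it did not pass (-0.26, adjusted p 0.101). Slc16a1, which encodes MCT1, a carrier of oxidative fibres and many other cells, had 67.5 to 91.8 CPM in WT (median 81.4) and 55.2 to 108 CPM in mdx/mTR (median 73.3), at -0.12 ± 0.13 (adjusted p 0.489). Gpd2, the mitochondrial enzyme of the shuttle, had 327 to 358 CPM in WT (median 347) and 207 to 314 CPM in mdx/mTR (median 264), without overlap, at -0.39 ± 0.09 (adjusted p 0.0023). Gpd1, the cytosolic enzyme, was at -0.25 ± 0.09 (adjusted p 0.0291) and missed the threshold under 7 of 22 alternatives.

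Other genes of the pathway were taken from separate lists, to be read against 25.0% higher and 23.4% lower among all genes, as are the counts by role. Of 12 tested genes of glucose entry and further glycolysis, 4 were higher and 3 lower (median log2 fold change -0.04). Tigar, a bisphosphatase that lowers fructose 2,6-bisphosphate, went from 203 ± 27.8 to 107 ± 12.4 CPM (SD, n = 6 each; log2 fold change -0.92 ± 0.10, edgeR adjusted p 8.0e-06). Slc2a4, the insulin-regulated glucose carrier, went from 792 ± 71.3 to 592 ± 65.7 CPM (-0.42 ± 0.08, edgeR adjusted p 9.8e-04). Hk3, a hexokinase of myeloid cells chosen after its value was seen, was higher at 2.07 ± 0.44. Of 16 tested genes of glycogen handling and its lysosomal route, 3 were higher and 7 lower (median -0.12). The smallest p-values there were those of Pgm2l1 (-0.89 ± 0.08), which makes glucose 1,6-bisphosphate, and of Pgm5 (0.62 ± 0.08), a cell junction protein related to phosphoglucomutase.

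Of 12 tested genes of lactate, pyruvate and gluconeogenesis, 1 was higher and 4 were lower (median -0.09). Emb, a partner protein of lactate carriers, rose by 1.84 ± 0.30 on the log2 scale, and G6pc3, a glucose 6-phosphatase of many tissues, was at -0.35 ± 0.05. In the pentose phosphate branch 4 of 10 genes were higher and 1 lower (median 0.14). H6pd, the enzyme of the endoplasmic reticulum, was at 0.43 ± 0.09 (edgeR adjusted p 0.0018) and Pgd at 0.46 ± 0.11 (edgeR adjusted p 0.0042). Of the near-copies listed in the table, none of 3 tested passed, and Pgk2 and Eno1b had medians of 0 CPM in both groups.

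The promoters of the phosphofructokinase subunits are shown because the subunits diverged in the counts, as the 150 bases before a RefSeq start on GRCm38.p6, written 5′ to 3′ on the strand of the gene. Capitals mark the core of the hypoxia factor element, ACGTG, searched on both strands. Pfkm has 4 listed starts, and its opening window lies on the plus strand at chr15:98092439-98092588. Pfkl lies on the minus strand at chr10:78009808-78009957 and Pfkp on the minus strand at chr13:6648772-6648921.
Pfkm: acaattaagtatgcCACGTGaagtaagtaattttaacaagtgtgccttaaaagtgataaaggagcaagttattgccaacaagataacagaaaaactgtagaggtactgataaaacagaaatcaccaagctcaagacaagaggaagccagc
Pfkl: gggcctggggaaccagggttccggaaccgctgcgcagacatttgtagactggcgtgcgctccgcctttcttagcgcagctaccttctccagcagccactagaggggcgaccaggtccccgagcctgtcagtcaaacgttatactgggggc
Pfkp: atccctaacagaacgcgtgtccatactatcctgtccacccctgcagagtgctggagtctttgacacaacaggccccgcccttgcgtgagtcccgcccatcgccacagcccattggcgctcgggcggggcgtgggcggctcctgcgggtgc
Over the 250 bases before each start, Pfkm is 36.4% G and C with 2 CG pairs, against 59.2% with 13 for Pfkl and 62.8% with 16 for Pfkp, while the 3 other Pfkm windows ran from 51.2% to 60.4%. The Pfkm window shown holds the core in both directions at 1 overlapping place, which is also an E-box; of the 3 other Pfkm windows 1 holds it once and 2 hold none, as do the windows of Pfkl and Pfkp. Over the set, 40 of the 41 genes had a window, and 24 of their 59 windows (40.7%) held ACGTG, against 16.6% of 32851 windows of the same length. The E-box letters CANNTG were in 67.8% of the set's windows and 66.2% of all, also on both strands. These matches are descriptions of letters and were not related to the counts.

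The authors' deposited table gives adjusted p-values for 40 of the 41 genes, of which 26 are below 0.05, 7 higher and 19 lower. In the authors' deposited table all 40 have the sign found with edgeR, and 24 of the 26 are also called by edgeR. The authors' deposited table calls Eno3 (-0.17, adjusted p 0.0381) and Phkg1 (-0.25, adjusted p 0.0416) lower, which edgeR did not, and does not call Pgam1 (adjusted p 0.102). For Pgk1 and Fbp2 it gives log2 fold changes of -3.78 and -1.09.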

How the data were processed

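Messenger RNA of the tibialis anterior was counted in 12 mice, 6 per group; groups and replicate numbers come from the labels. The authors deposited whole-number counts per gene symbol, with 1 column per mouse and 0 unmatched columns. The submitters' processing notes name FastQC, STAR, DESeq2 and the build mm10; counter, annotation, strand handling and treatment of reads with several matches are not given in the sources used here. The authors' deposited comparison table holds a mean signal, a log2 fold change, its standard error and a test statistic (a score), and p-values, per the file headers.

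The counts were filtered with filterByExpr, scaled by TMM and tested with edgeR 4.0.16 in R 4.3.3 (glmQLFit, glmQLFTest), with Benjamini-Hochberg adjustment over 13937 genes and a threshold of 0.05. The standard error is the log2 fold change divided by the square root of F. A count of 3, the limit that a count of 0 allows, equals 0.0460 to 0.0837 CPM; this covers only the error of counting. All 30 pairs within a group differed beyond sampling noise (chi-square per degree of freedom 8.87 to 116). The p-values weigh the difference between the groups against the spread between mice within a group. The labels do not tell how mice were housed or handled, so any such difference between the groups cannot be told apart from the strain label.

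The members and lists were chosen with earlier results of these data known. All members are accounted for; full values go to the 8 largest changes past the threshold in each direction with a mean of at least 1 CPM, to muscle and other enzyme forms, and to Pgk1 and Gapdh, and the 2 smallest p-values of each other list are named. Any other gene was chosen after its value was seen. Alternatives were other filters and scalings, DESeq2 1.42.0, limma-voom (limma 3.58.1), a replicate block, each mouse left out, a stricter threshold and a minimum effect; leaving out WT replicate 2 and mdx/mTR replicate 5 together was chosen after seeing the data. On counts simulated for 13937 genes, the edgeR fit recovered 80.3% of 66 genes changed 2-fold, 68.2% of 66 changed 1.5-fold and 17.6% of 68 changed 1.25-fold, with 10 false calls in all. No other genes were changed in that simulation, whereas 48.3% of the tested genes were called in the data. Its rates may therefore not hold for the data. Protein sequences were not used here.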

Additional observations from a re-analysis of the deposited data

Results flagged for a closer look

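The 6 libraries of a group were screened gene by gene for an extreme value, using Dixon's ratio (distance to the closest library over the full range) and its 95% critical value. Among 82 sets (41 genes, each in both groups), 9 passed, where chance gives about 1 in 20, or 4.1; genes of a pathway move together, so these are not independent. No explanation was tested.

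Of the 9, 4 fell on mdx/mTR replicate 5. It was lowest for Aldoa (12635 CPM against 14913 to 16104 in the others, ratio 0.657) and for Pgam2 (1303 CPM against 1751 to 1885, ratio 0.770), and highest for Pygl (6.39 CPM against 1.80 to 3.21, ratio 0.693) and Pygb (14.6 CPM against 8.58 to 10.2, ratio 0.728). Over all 41 genes this library was the lowest of its group for 25 and the highest for 6.

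WT replicate 2 was lowest for 2 phosphorylase kinase genes, Phka1 (1200 CPM against 1726 to 1913, ratio 0.738) and Phkg1 (497 CPM against 560.1 to 585, ratio 0.716). It was the lowest WT library for 19 of the 41 genes. Single values stood apart for Hk2, where mdx/mTR replicate 2 had 756 CPM and the others 318 to 439 (ratio 0.725), and for Fbp2 in WT replicate 4 (62.6 CPM against 42.5 to 49.6, ratio 0.646) and for the same gene with mdx/mTR replicate 3 at 35.4 CPM and the others at 16.8 to 23.4 (ratio 0.646).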

How the results depend on the processing

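With library totals alone, 13 genes of the set were higher and 9 lower in place of 8 and 17. This setting leaves out the TMM factors, which were 0.929 to 0.971 for WT and 0.988 to 1.16 for mdx/mTR. Why these factors differ between the groups was not tested. At an adjusted p of 0.01, 14 were called, 5 higher and 9 lower, and against a minimum log2 fold change of 0.5, 3 were called, 1 higher and 2 lower, with 1368 genes called in all; both ask for stronger evidence. Leaving out 1 mouse moved the genes called over all genes tested to 6125 to 6816 and the set to 17 to 23, 6 to 8 of them higher and 11 to 16 lower; the lowest number of lower genes, 11, came without WT replicate 5. Over the up to 22 alternatives other than the stricter threshold and the minimum effect, single genes lost a call 95 times and gained one 14 times. Signs reversed for genes that did not pass: with library totals alone for Pfkm (0.039), Aldoa (0.033), Pgam2 (0.028), Gbe1 (0.139) and Slc16a1 (0.045), and with upper quartile factors for Gbe1 (0.024). Without 1 mouse, Gpi1 ran from -0.024 to 0.043, Gapdh from -0.020 to 0.088 and Gbe1 from -0.144 to 0.062. Without WT replicate 2 and mdx/mTR replicate 5 together, Gbe1 was at 0.084, Pfkfb3 at 0.067 and Gapdh at 0.106; Pfkfb3 ran from -0.289 to -0.0069 without 1 mouse. With the mean length of coding transcripts, Hk1 made up 5.51% of its pair in WT and 10.3% in mdx/mTR, Pfkl 0.166% of its family in WT, and Pfkp 0.129% in WT and 0.221% in mdx/mTR, because that length differs.

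The groups share replicate numbers without a stated pairing. Libraries with the same number had correlations of their deviations from -0.139 to 0.334, with 2 of 6 above 0.1. In all, 4 of 12 libraries correlated best with their own number. These values are too few to settle whether shared numbers mark pairs. With a replicate block the genes called over all genes tested numbered 6420, with 24 of the set, 6 higher and 18 lower; Pgam1, Pygl and Pfkfb2 lost the call, and Phkg1 (-0.26) and Ppp1r3c (-0.50) gained it. Genes with few counts (Aldoc, Eno1, Pgam1) and genes with shared coding sequence (Gapdh, Pgk1, Pgam1, Eno1) are limited by depth and by unique sequence.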

Other observations

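The 4 tested protein-coding genes on each side of Pgk1 on chromosome X were read for comparison, after the value of Pgk1 had been seen. Of these 8 neighbours, 3 were higher (Atp7a 0.23, Tlr13 3.17 and Cysltr1 1.26), 3 were lower (Magt1 -0.12, Cox7b -0.30 and Taf9b -0.52) and 2 did not pass (Fndc3c1 and Lpar4) in edgeR at an adjusted p below 0.05. None fell as far as Pgk1 (-3.82). Taf9b, the next gene after Pgk1 (chromosome X, 106206874 to 106221158), went from 11.8 ± 0.503 to 8.22 ± 0.950 CPM (SD, n = 6 each).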
